A study of Danio rerio with 2 samples.

Results

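The cells described here are 10 epithelial cells of the zebrafish embryo, set against 58 blood and endothelial cells sorted from the same pools of embryos. Membership was taken from the deposited grouping of cells, in which population 2 holds the 10 cells. The supplementary annotation of the study names it epithelial, and its text speaks of epidermal cells and calls them nonspecific. The comparison side holds populations 1 (erythrocytes, 5 cells), 8 (macrophages, 11 cells) and 4 endothelial populations, numbered 4 (progenitors, EPC, 14 cells), 5 (venous, 8), 6 (arterial, 13) and 7 (EC2, 7). Population 3, named tailbud, was left out with its 28 cells, which completes the 96 cells of the series. All cells came from untreated embryos of the line Tg(-2.3 etv2:GFP)zf372, grown at 28.5 °C, in which an upstream fragment of etv2 drives GFP, so every group shares the transgene. Embryos of a stage were pooled, GFP-positive cells were sorted, and each was then isolated in a chamber of a microfluidic chip (Fluidigm C1). The labels give the cell type of both samples as vascular endothelial, and the 10 cells were part of that sort. There was 1 sample at the 15-18 somite stage (6 epithelial and 28 comparison cells) and 1 at the 20 somite stage (4 and 30 cells), so stage, day and chip cannot be told apart.

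The embryonic epidermis of fish has a basal layer, which rests on a basement membrane and depends on the transcription factor p63, and an outer layer, the periderm, which seals the surface. Its cells are held together by claudin-based tight junctions, by the adhesion molecule Epcam and by desmosomes, and are filled with keratin filaments. Scattered through it lie ionocytes, which exchange ions with the water. Endothelial cells are also a sheet with tight junctions, but build them from other members of the same gene families, and early blood and endothelial cells share a set of regulators that includes etv2, tal1, lmo2 and the Fli1 family.

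The unit throughout was TPM, the share of a gene among the transcripts of a cell after adjustment for transcript length, scaled so that a cell sums to 1000000, so that levels of different genes may be set side by side. Levels were taken as log2(TPM + 1) and averaged within each population. A difference is the epithelial mean minus the mean of the 6 population means, and detection in a cell means a value above 1 TPM. Because the populations had been clustered from these same cells and genes, and because each stage is 1 sample, no difference was tested, and every value is a description of these 68 cells. Spread is given as the SD over the 10 epithelial cells, which are not replicates. TPM keeps no read depth, so a value of 0 does not show that a gene was silent. The epithelial cells had between 3627 and 6675 genes detected (median 5395.5), against 4329 to 7337 (median 5489) in the comparison cells.

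The population carried the epithelial markers epcam, cldni and krt4, as genes that the clustering could use, so their levels describe the cells and give no independent support to the label. The adhesion gene epcam (ENSDARG00000040534) lay between 2125 and 9536 TPM in the 10 epithelial cells with a median of 3455 TPM. In the 58 comparison cells it was detected in 15, with a median of 0 and a highest value of 355 TPM. The claudin gene cldni (ENSDARG00000054616) lay between 1977 and 4962 TPM with a median of 3023 TPM, and its highest comparison cell had 15.7 TPM. The keratin gene krt4 (ENSDARG00000017624) lay between 5944 and 47946 TPM with a median of 15839 TPM, against a highest comparison cell of 82.8 TPM. For each of the 3 genes every epithelial cell lay above every comparison cell, as was the case for 17 (0.299%) of the 5687 genes compared below. All 3 were above 1 TPM in 10 of 10 epithelial cells (exact Clopper-Pearson 95% interval 69.2% to 100%, which covers the counting of cells only and not their selection), and in 4 of 58 comparison cells. Above 5 TPM the counts were 10 of 10 and 0 of 58. A count of 0 allows up to 3 of 58 cells, or 5.17%, and the exact interval reaches 6.16%. A trace of krt4 was nearly everywhere, since 50 of the 58 comparison cells were above 1 TPM at a median of 2.62 TPM, and the comparison population means lay between 1.46 and 2.60 on the log2 scale.

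**Figure D1:**
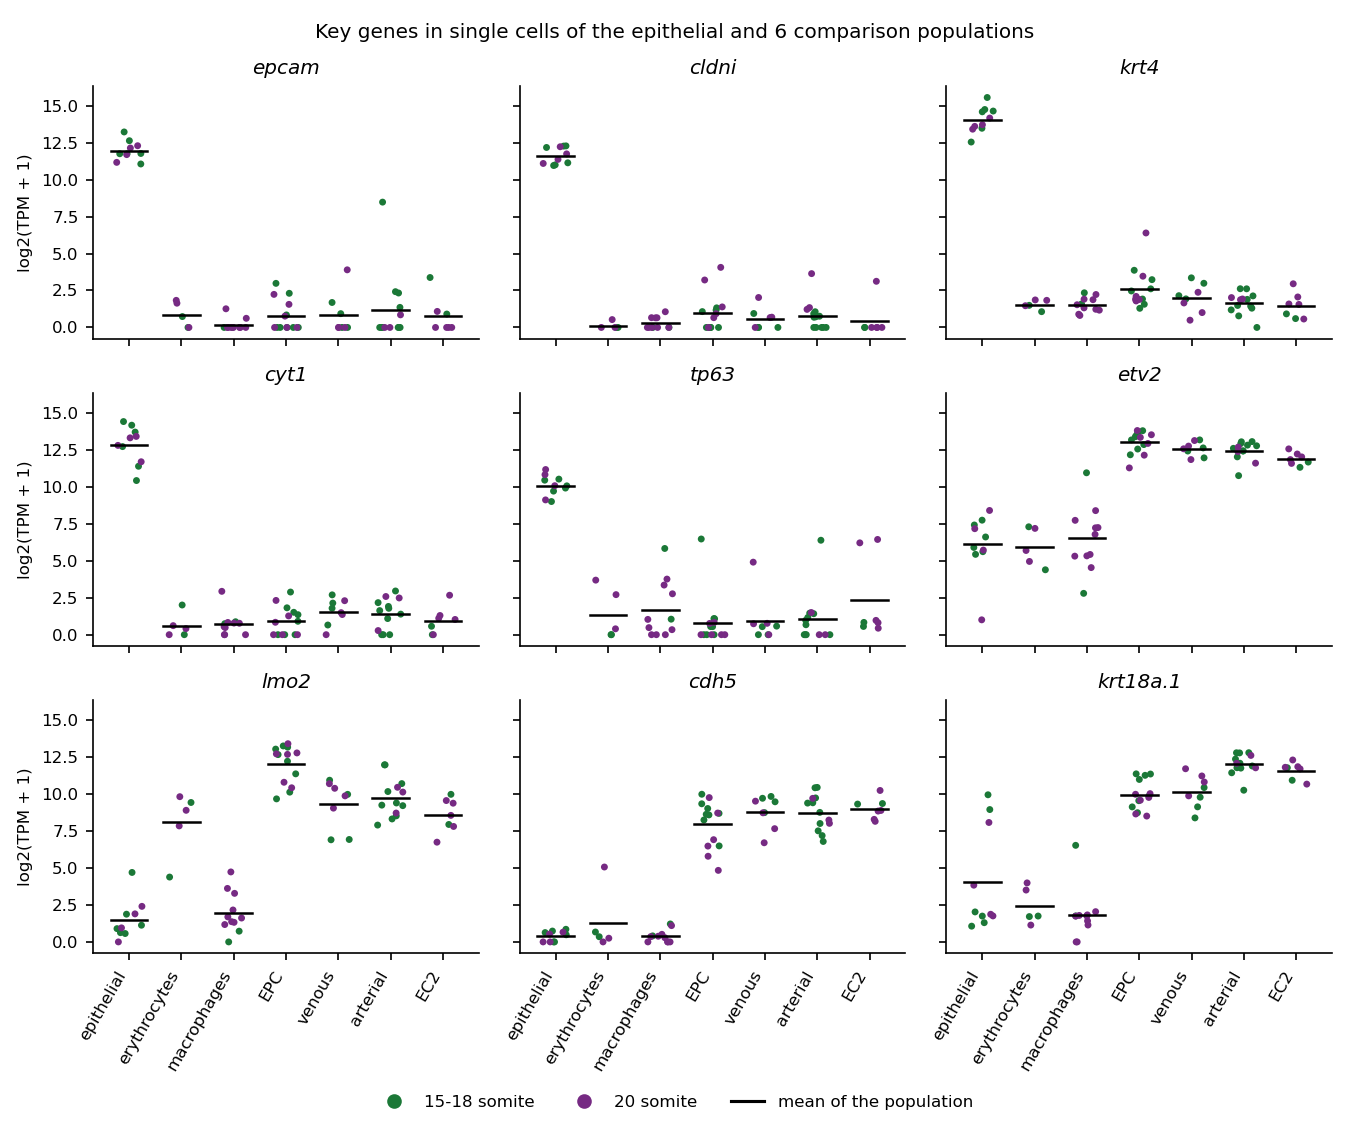
Level of 9 genes in single cells as log2(TPM + 1), by population, with 15-18 somite cells in green, 20 somite cells in purple and the population mean as a bar. The 10 epithelial cells stand apart for epcam, cldni, krt4, cyt1 and tp63, lie with erythrocytes and macrophages for etv2 and cdh5, and spread widely for krt18a.1.

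Over the whole table, 5687 of 27931 genes were above 1 TPM in at least 50% of the cells of either side, and the median difference over them was -0.10. Of these, 648 (11.4%) were higher in epithelial cells by at least 2, a 4-fold difference, and 496 (8.72%) were lower by at least 2. The genes on either side of these limits had differences of 2.004 and 1.996, and of -2.006 and -1.9997. Of the 648 higher genes, 451 had passed the filter through the epithelial side alone, and of the 496 lower genes 345 had passed through the comparison side alone, so the direction of these was largely set by the filter, and no count over the passing members of a list is read as support for it. The shares of 11.4% and 8.72% are those to set beside the counts of every list below. With each stage taken alone, 626 of the 648 higher genes and 493 of the 496 lower genes had the same sign at both. As these genes had been chosen on the cells of both stages together, this agreement was largely built in. At 15-18 somites erythrocytes, EC2 cells and macrophages had 2 cells each, and each population had equal weight. Higher by at least 2 at each stage were 412 genes (7.24%) and lower at each were 324 (5.7%). The 20 somite cells alone, with 4 epithelial cells, gave 872 lower genes in place of 496, and 748 higher ones.

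The 2 directions differed in how they spread over the comparison populations, but they are not on equal terms. With 1 population set against 6 unlike ones, a gene lower than each must be high in all 6. Higher than each of the 6 populations by at least 2 were 304 genes (5.35%), and lower than each were 38 (0.668%). Lower than each of the 4 endothelial populations were 297 genes (5.22%). Most of the lower genes were thus not lower by at least 2 than every comparison population. Of the 496, 226 and 238 were lower by at least 2 than erythrocytes and than macrophages, a pattern that the filter partly set. For 17 genes (0.299%) every epithelial cell lay above every comparison cell, and for 0 genes did every comparison cell lie above every epithelial cell. Detected in all 10 epithelial cells were 161 of the 648 higher genes, and 9 of these were found in at most 5 of the 58 comparison cells. Detected in 0 epithelial cells were 75 of the 496 lower genes.

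**Figure D2:**
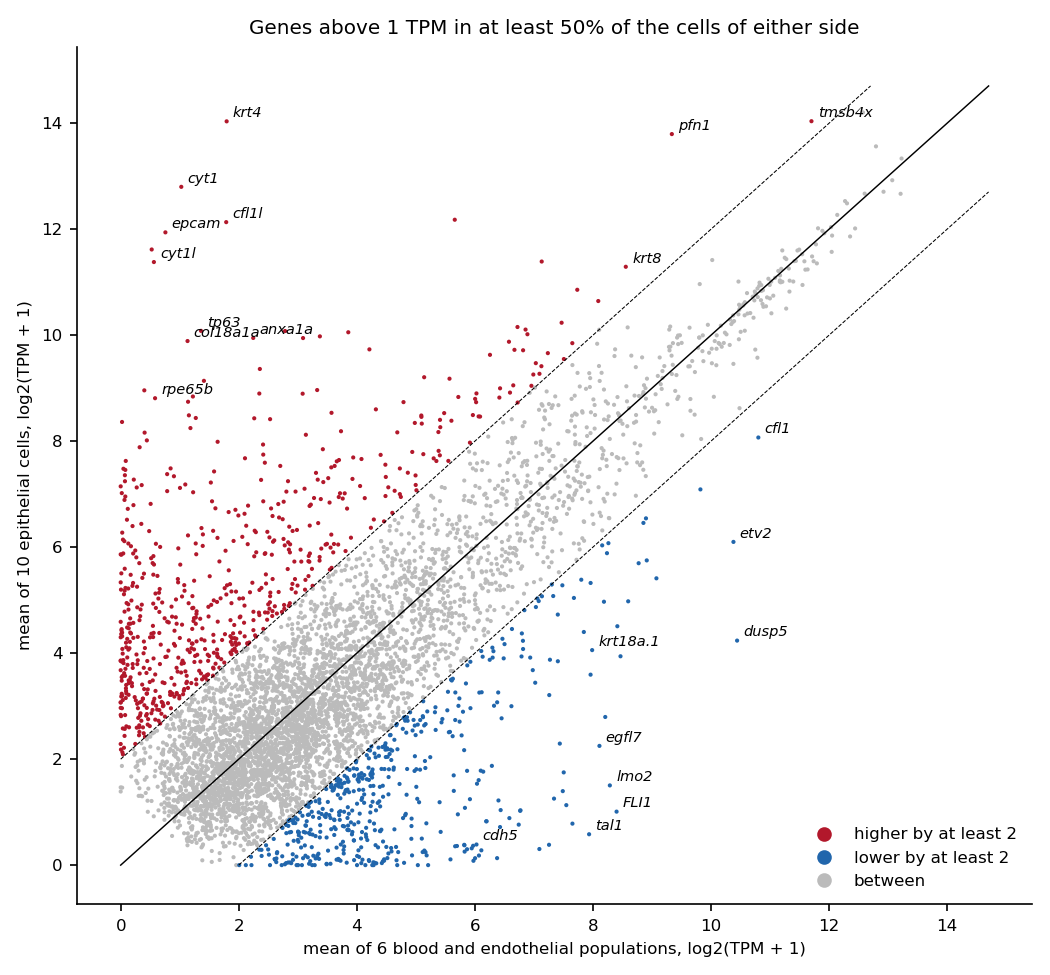
Mean log2(TPM + 1) of the 10 epithelial cells (vertical) against the mean of the 6 comparison populations (horizontal) for the 5687 genes that passed the filter, with 648 higher genes in red and 496 lower genes in blue. The keratins krt4, cyt1 and cyt1l and epcam, cfl1l and tp63 lie high on the left, where the comparison mean is low, while tal1, lmo2 and FLI1 lie low on the right. The keratin krt8 lies further to the right, and krt18a.1 is among the lower genes.

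Among keratins and other intermediate filament genes, 20 of 23 listed genes were matched and 10 passed the filter, of which 8 were higher and 2 lower (median difference 3.45), where 11.4% and 8.72% of all genes that passed were higher and lower. Of the 8 higher genes 2 passed through both sides, and of the 2 lower genes 1. Of the 20, 5 were detected in 0 epithelial cells. The difference of krt4 was 12.24 (SD 0.86 over the epithelial cells) and was the largest of all genes with a symbol. The type I keratin gene cyt1 (ENSDARG00000092947) lay between 1372 and 21786 TPM in epithelial cells with a median of 8647 TPM, while its highest comparison cell had 6.75 TPM, a difference of 11.78 (SD 1.28). Its neighbour in name cyt1l (ENSDARG00000036832) lay between 195 and 10561 TPM, with a difference of 10.82 (SD 1.68). These 3 keratins were detected in every epithelial cell, and krt4 was the highest of the keratins named here in all 10 cells. Together the listed keratin genes made up 1.22% to 8.25% of all TPM in the epithelial cells (median 3.09%), against at most 1.48% in any comparison cell.

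The remaining keratins were lower in level or patchy. The gene krt92 was detected in 8 epithelial cells (median 185 TPM) and 2 comparison cells, krt17 in 9 and 2, krt91 in 9 and 0, and krt5, the basal layer keratin in mammals, in 6 and 1. By lowest epithelial against highest comparison cell, cyt1, cldni, krt4 and cyt1l had the widest gaps of the genes with a symbol, with 7.47, 6.89, 6.15 and 5.14 on the log2 scale. The next gap was that of si:dkey-102c8.3 (5.13), a gene of unknown role here with 34.1 to 476 TPM in the epithelial cells and 0 TPM in all 58 comparison cells. The simple epithelial keratin krt8 showed a different pattern. It lay between 1192 and 4855 TPM in epithelial cells with a median of 2534 TPM, a difference of 2.73, but its mean of 11.29 on the log2 scale was no higher than in arterial cells (11.51) and close to EC2 cells (11.23). Its usual filament partners were the 2 keratins that were lower. The gene krt18a.1 (ENSDARG00000018404) had a median of 2.87 TPM in epithelial cells and 2423 TPM in the 42 endothelial cells, a difference of -3.93 (SD 3.51), and krt18b was detected in 1 epithelial cell, a difference of -4.87. Against the blood populations alone krt18a.1 was higher by 1.94, so its low level was relative to endothelium.

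Tight junction genes lay on both sides of the comparison. Of 21 matched genes 11 passed, with 8 higher and 2 lower (median difference 5.07), all 8 through the epithelial side alone and both lower ones through the comparison side alone, so the filter largely set their direction. Beside cldni with a difference of 11.09 (SD 0.57), cldn1 was detected in 9 epithelial cells (median 536 TPM) and 1 comparison cell with a difference of 8.34, and cldn7b in 9 and 3 cells with a difference of 6.86. These claudins are components of the barrier of epithelial sheets. The occludin gene oclna (5.53), the junctional adhesion molecule gene f11r.1 (6.09) and the scaffold genes tjp2a (5.07) and tjp3 (3.56) were on the same side. The 2 lower genes were cldn5b (-4.60), the claudin of endothelium, detected in 1 epithelial cell against a mean of 9.94 in arterial cells, and TJP1 (-4.03), a further scaffold, also detected in 1 epithelial cell. Relative to blood they were not lower, with differences of 0.10 and 0.08 against erythrocytes and macrophages alone. The 20 somite cell 4 lacked cldn1 (0 TPM) and had 3 of the 21 tight junction genes detected, the lowest number among the epithelial cells, against 7 to 10 in the other 9.

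**Figure D3:**
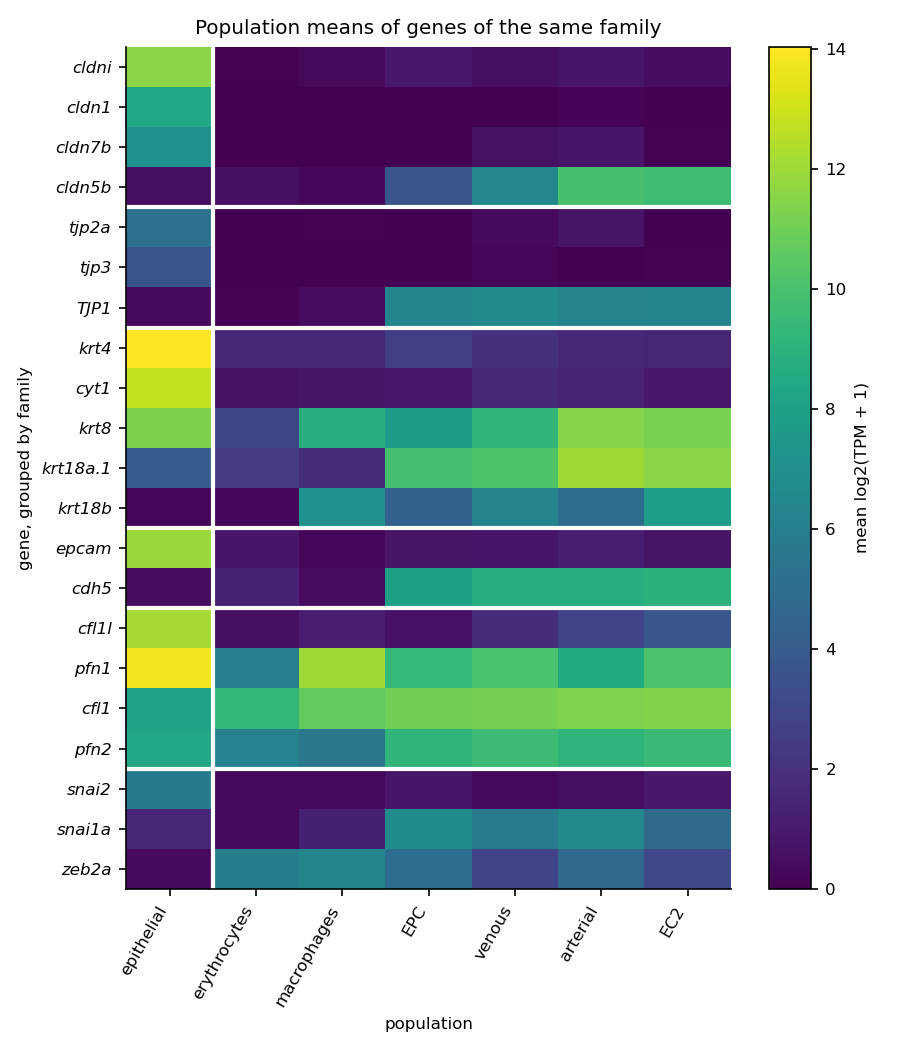
Mean log2(TPM + 1) of each population (columns) for members of 6 gene families or groups (rows). In each group the epithelial column is bright for some members (cldni, tjp2a, krt4, epcam, cfl1l, snai2). In each but the cofilin and profilin group it is dark for others (cldn5b, TJP1, krt18b, cdh5, zeb2a). The genes krt8 and pfn1 are also high in comparison populations.

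Of the adherens junction and desmosome genes, 10 of 15 matched genes passed, with 4 higher and 2 lower (median 1.56). Of the 4 higher genes 1 passed through both sides, and of the 2 lower genes 0. Apart from epcam with a difference of 11.19 (SD 0.65), the higher genes were the desmosomal cadherin dsg2.1 (2.97), detected in 5 epithelial cells and 0 comparison cells, the catenin ctnnd1 (2.71) and the plakophilin pkp2 (2.48). The vascular cadherin cdh5 was lower by 5.64 on this scale, with a highest epithelial value of 0.81 TPM. On the log2 scale its highest cell had 0.85 among epithelial cells, 1.22 among macrophages and 5.07 among erythrocytes. Its low level was thus mainly relative to endothelium. A plakophilin gene named PKP3 (2 of 2) was also lower, with a difference of -3.29 and 0 epithelial cells. The beta-catenin gene ctnnb1, a part of all adherens junctions, was detected in all 10 epithelial cells and had a difference of -0.53.

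Of 21 matched genes for contact with the basement membrane 9 passed, 7 were higher and 0 lower (median 3.54). Of the 7, 1 passed through both sides (pleca) and 6 through the epithelial side alone, which largely set their direction. The laminin chain gene lama5 was the most even of them, between 55.7 and 121 TPM in the 10 cells (median 85.5 TPM) against a highest comparison cell of 19.9 TPM, a difference of 6.09. The hemidesmosome partners itga6b (4.64) and itgb4 (2.73), the linker genes pleca (4.53) and plecb (2.69), the integrin gene itga3b (3.54) and the anchoring fibril collagen gene col7a1 (4.30) followed. Expression of col7a1 was found in 9 epithelial cells and 0 comparison cells. Of 17 matched collagen genes 9 passed, 9 were higher and 0 lower (median 4.42). Here 2 passed through both sides (col1a1a and col4a6) and the direction of the other 7 was largely set by the filter. The largest difference was that of col18a1a (ENSDARG00000036558), a basement membrane collagen with 193 to 1874 TPM in the epithelial cells (median 1147 TPM) and a difference of 8.76 (SD 0.999). The fibrillar genes col1a2 (6.44), col11a1a (5.38), col1a1b (4.16) and col1a1a (2.76) and the fibril-associated col14a1a (6.82) were included, as were col4a5 (4.42) and col4a6 (4.03). The chains col4a1 and col4a2, which build the common type IV network, were matched but detected in 0 epithelial cells, against 19 and 22 comparison cells, too few to pass.

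Transcription factors of the epidermis passed in 13 of 28 matched cases, with 10 higher and 1 lower (median 3.11). Of the 10 higher genes 1 passed through both sides, and the filter largely set the direction of the others. The lower gene passed through the comparison side alone. The gene tp63 (ENSDARG00000044356), which encodes p63, lay between 512 and 2299 TPM in the 10 cells with a median of 1073 TPM, and its highest comparison cell had 87.7 TPM, a difference of 8.72 (SD 0.69). The nuclear receptor gene nr2f5 (7.76), the homeobox genes dlx3b (7.29) and msx1b (5.28) and tfap2a (6.83) were next, and tfap2a was detected in 9 epithelial cells and in 0 of the 58 comparison cells. Further down were cebpd (5.12), tfap2c (3.11), gata3 (2.66), dlx4b (2.29) and the splicing regulator esrp1, detected in 5 epithelial cells. The gene klf3 was lower, with a difference of -2.35, although 4 of the 6 earlier epithelial cells had 95.5 to 886 TPM and the other 6 of the 10 had 0 TPM. The factor grhl3, known from surface epithelia, did not pass the filter, as it was found in 3 epithelial cells, all from the 15-18 somite stage, at 58.3, 617 and 843 TPM, and in 0 comparison cells.

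Genes listed as basal and as periderm markers were detected in the same cells. Of 6 matched basal epidermis markers 5 passed and 5 were higher (tp63, lama5, itga6b, krt5 and itgb4, median 4.64), all through the epithelial side alone. The matched marker that did not pass, col17a1b, had 8.93 TPM in 15-18 somite cell 3 and was below 1 TPM in the other epithelial cells. The listed basal keratin krtt1c19e was not matched. Of the periderm markers 3 of 7 matched genes passed and 2 were higher (median 3.15), namely krt92 with a difference of 5.84 and krt17 with 3.15. Both passed through the epithelial side alone, and krt17 was at most 7.45 TPM outside 20 somite cells 1 and 3. The annexin anxa1c had a difference of 0.87, and of the genes that did not pass, grhl3 is given above, cldne and agr1 were detected in 1 epithelial cell each and evpla in 0. The 6 epithelial cells with krt5 all had krt92 as well, and 2 cells had neither. In 15-18 somite cells 4 and 5 krt5 was near the detection minimum, at 2.79 and 1.86 TPM. Whether krt5 marks the basal layer in these cells was not tested. Every one of the 10 cells carried tp63. The ionocyte regulators foxi3a, foxi3b and gcm2 and the calcium channel gene trpv6 were detected in 0 epithelial and 0 comparison cells. Of 9 matched ionocyte genes 2 passed, both proton pump subunits, with 0 higher and 1 lower (atp6v1ba, -2.34, median -1.37). Hatching gland enzymes he1a, he1b, he2 and ctslb were detected in 0 epithelial cells, and the 1 gene of that list that passed, cd63, had a difference of -1.70.

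**Figure D4:**
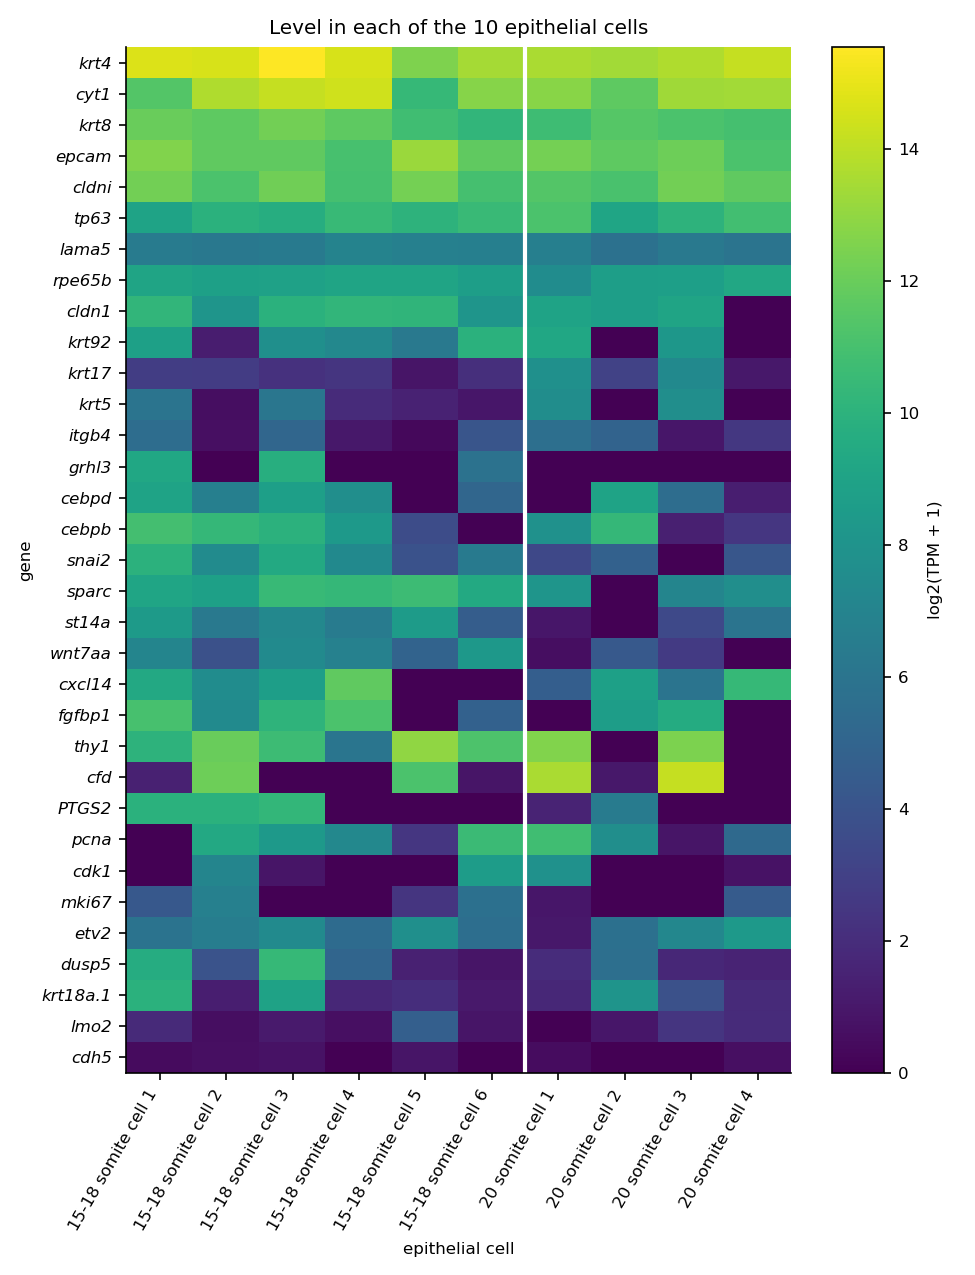
Level of 33 genes as log2(TPM + 1) in each epithelial cell, with the 15-18 somite cells left of the white line and the 20 somite cells right of it. The 8 genes from krt4 to rpe65b are present in all 10 cells, many of those below differ between cells, and cdh5 is near 0 throughout.

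The list of proteases, their inhibitors and partners, which holds membrane, secreted, cytoplasmic and lysosomal proteins, passed in 10 of 17 matched cases with 6 higher and 2 lower (median 4.27). The 6 higher genes passed through the epithelial side alone, which largely set their direction, and the 2 lower genes through both sides. The gene of the cytoplasmic protease calpain capn8 (ENSDARG00000055715) was between 155 and 1419 TPM (median 547 TPM), a difference of 8.56. The matriptase gene st14a (5.19) and its inhibitor spint1a (7.57) were both higher, st14a in 8 and spint1a in all 10 epithelial cells, as were the tetraspanin gene tspan33a, detected in 9 epithelial cells and 1 comparison cell, the metalloproteinase gene mmp30 (6.10) and a calpain subunit gene named CAPNS1 (3.34). The 2 lower genes, ctsla (-2.73) and CTSB (-2.01), encode lysosomal cathepsins.

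Of 12 matched retinoid handling genes 4 passed and 3 were higher (median 5.89), while 4 of the 12 were detected in 0 epithelial cells. The 3 higher genes passed through the epithelial side alone, which largely set their direction. The gene rpe65b (ENSDARG00000094752), related to the retinoid isomerase of the eye, had 185 to 651 TPM in the 10 cells with a median of 472 TPM, and its highest comparison cell had 107 TPM. Its difference was 8.23 with an SD of 0.49. The retinol acyltransferase gene lrata was detected in 9 epithelial and 2 comparison cells (7.54), and rpe65c in 9 and 3 (4.23). The receptor gene rarab had a difference of 1.33.

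Actin binding genes were high on both sides, with 14 of 22 matched genes passing, 6 higher and 1 lower (median 1.49). Of the 6 higher genes 2 passed through both sides, as did the lower gene, and the filter largely set the direction of the others. As among claudins, 1 family was split. The cofilin-like gene cfl1l (ENSDARG00000012972) had 3086 to 6975 TPM in the epithelial cells (median 4570 TPM) and a difference of 10.35 with an SD of 0.39, while cfl1 was lower by 2.73 on the log2 scale, although it was detected in all cells. Profilin pfn1 reached 8267 to 21522 TPM, above the highest comparison cell of 6509 TPM, and its difference of 4.46 came with macrophages nearest at a mean of 12.06 against 13.80. Higher too were coro2a (5.67), gsnb (5.15), scinla (4.11) and the thymosin gene tmsb4x (2.34). The summed TPM of the list was 42219 to 102177 in the epithelial cells and 3926 to 55878 in the comparison cells. A subunit of the Arp2/3 complex, ARPC5, was also among the 15 largest positive differences (7.62).

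Annexins and S100 genes passed in 7 of 20 matched cases with 4 higher and 1 lower (median 2.08). Of the 4 higher genes 3 passed through both sides, and the lower gene passed through the comparison side alone. The gene anxa1a had 354 to 1778 TPM in the epithelial cells and a difference of 7.70, but it was detected in 31 comparison cells too, where it reached 1534 TPM. The genes s100a10b (5.89), anxa11b (2.45) and anxa11a (2.08) were higher and anxa3b was lower (-3.45). The tetraspanin gene cd9b was higher by 7.73 and was found in 20 comparison cells. Of the gap junction genes a single one of 15 listed was matched, cx44.2, which was above 1 TPM in all 10 epithelial cells and 0 of 58 comparison cells, a difference of 5.85. Of the apicobasal polarity genes, which set the inner and outer faces of an epithelial cell, 13 were matched and 1 passed, llgl2, with a difference of 0.65.

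Of 34 matched genes for secreted signals 11 passed, with 3 higher and 1 lower (median 0.72). The 3 higher genes passed through the epithelial side alone and the lower gene through the comparison side alone, which largely set their direction. The chemokine gene cxcl14 was detected in 8 epithelial cells and 1 comparison cell (6.60), wnt7aa in 8 and 0 (4.59) and sema3d in 5 and 1 (3.25), while the Notch ligand gene dll4 was lower (-4.37) and detected in 0 epithelial cells. Of 28 matched receptor genes 17 passed, with 1 higher and 8 lower (median -0.69). The 8 lower genes passed through the comparison side alone, which largely set their direction, and the higher gene through both sides. The higher one was fgfr2 (2.54), a receptor for fibroblast growth factors, detected in all 10 epithelial cells. The 8 lower ones were vascular receptors, namely tie1, kdrl, nrp1b, aplnrb, kdr, flt1, flt4 and tek, with differences of -4.92 to -3.14. Against blood alone tie1, kdrl and flt1 had differences of 0.09, 0.36 and 0.05, so for these the low level was relative to endothelium.

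Of the endothelial list 21 of 24 matched genes passed and all 21 were lower (median -4.79), 7 of them passing through both sides and the rest through the comparison side alone. The largest were an Ets factor gene named FLI1 (-7.39), tal1 (-7.35), lmo2 (-6.78), the phosphatase gene dusp5 (-6.21), sox7 (-6.09) and egfl7 (-5.86). In the epithelial cells tal1 lay between 0 and 2.52 TPM with a median of 0.40 TPM, and FLI1 between 0.24 and 2.57 TPM, whereas the medians over the comparison cells were 341 and 944 TPM. The gene tal1 was lower than in each of the 6 populations, by at least 5.86, while sox7 was lower than in endothelium only, with a difference of 0.29 against blood alone. Macrophages were low in lmo2 as well, at 0 to 4.73 on the log2 scale against 0 to 4.70 in epithelial cells. Erythrocytes had 4.39 to 9.82, so the low level of lmo2 was relative to endothelium and erythrocytes. Of all 24 matched endothelial genes, 12 were detected in 0 epithelial cells, among them cdh5, tie1, flt1, flt4 and sox18, and kdrl was detected in 1 cell at 24.0 TPM. Each epithelial cell had 4 to 9 of the 24 detected, against 6 to 10 in macrophages, 6 to 9 in erythrocytes and 15 to 24 in the endothelial populations.

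The transcript of etv2, whose regulatory sequence drives the reporter, was above 1 TPM in all 10 epithelial cells, although only just in 20 somite cell 1. The values in the 15-18 somite cells 1 to 6 were 58.7, 96.5, 170, 42.2, 213 and 47.9 TPM, and in the 20 somite cells 1 to 4 they were 1.01, 51.7, 143 and 337 TPM. The median of 77.6 TPM stood against 6142 TPM in the 42 endothelial cells, where etv2 was in every cell, a difference of -4.28 against all 6 populations. At a mean of 6.10 on the log2 scale the epithelial cells lay between erythrocytes (5.90) and macrophages (6.52), and etv2 was detected in all cells of these populations also. The mean of egfl7 also lay between those of erythrocytes and macrophages, at 2.25 in epithelial cells, 2.22 in erythrocytes and 2.55 in macrophages. It was above 1 TPM in all epithelial cells but 20 somite cell 1, and dusp5 in all but 15-18 somite cell 6. Whether these low values are RNA made in the cells or RNA from outside them was not tested. A pair of other genes low on average was uneven, as dusp5 reached 793 and 1375 TPM in the 15-18 somite cells 1 and 3 and at most 49.8 TPM in the others, and krt18a.1 reached 988 and 494 TPM in the same cells and 269 TPM in 20 somite cell 2. In each of these 2 cells 7 of the 24 endothelial genes were above 1 TPM, within the 4 to 9 of all 10 cells. Beside etv2 and dusp5 none of the 24 exceeded 7.77 TPM in either cell.

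The other genes among the 15 largest negative differences were lrrfip1a (-6.87), si:dkeyp-8h9.1 (-6.79), RASSF1 (-6.42), DIPK2B (-6.25), the Src family kinase gene FGR (-6.09), the actin bundling gene FSCN1 (-5.98), the tetraspanin gene tspan4 (-5.90), the receptor gene GPR182 (-5.89) and LFNG (-5.87), which modifies Notch. Of these, tspan4 and LFNG were detected in 0 epithelial cells. Of 15 erythroid genes 3 passed and 2 were lower (blf, -3.76, and gata1a, -2.40, median -2.40), and globin genes took at most 0.000595% of the TPM of any epithelial cell, against 1.84% to 7.03% in the 5 erythrocytes. Of 13 matched macrophage genes 5 passed, with 1 higher and 1 lower (median -1.02). Genes found in blood cells alone could not pass through the comparison side, which limited how many genes of these 2 lists passed. The lower gene was spi1b (-2.18), a regulator of myeloid cells, whose difference against endothelium alone was 0.06, and lcp1 and cebpa were detected in 0 epithelial cells. The higher gene was cebpb (3.78), found in 9 epithelial cells with a median of 284 TPM and more highly in macrophages, at a mean of 10.09 against 6.53.

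Genes of the transition between epithelial and mesenchymal state lay on both sides of the comparison. Of 14 matched mesenchymal genes 6 passed, with 2 higher and 2 lower (median 0.47). Of the 2 higher genes 1 passed through both sides, and of the 2 lower genes 0. The filter largely set the direction of snai2, which passed through the epithelial side alone. The same is true of snai1a and zeb2a, which passed through the comparison side alone. The gene snai2 (5.16), a repressor of the Snail family, was detected in 9 epithelial cells (median 53.9 TPM) and 12 comparison cells, whereas snai1a was lower (-2.79) with a median of 0.53 TPM, and zeb2a was lower (-4.32) with 0 epithelial cells. Against blood alone snai1a had a difference of 0.69, so its low level was again relative to endothelium. The gene twist1b was in all 10 epithelial cells at 9.85 to 47.3 TPM, but was neither higher nor lower by at least 2. The matrix protein gene sparc had a difference of 2.79, which was 4.97 at 15-18 and -0.08 at 20 somites.

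**Figure D5:**
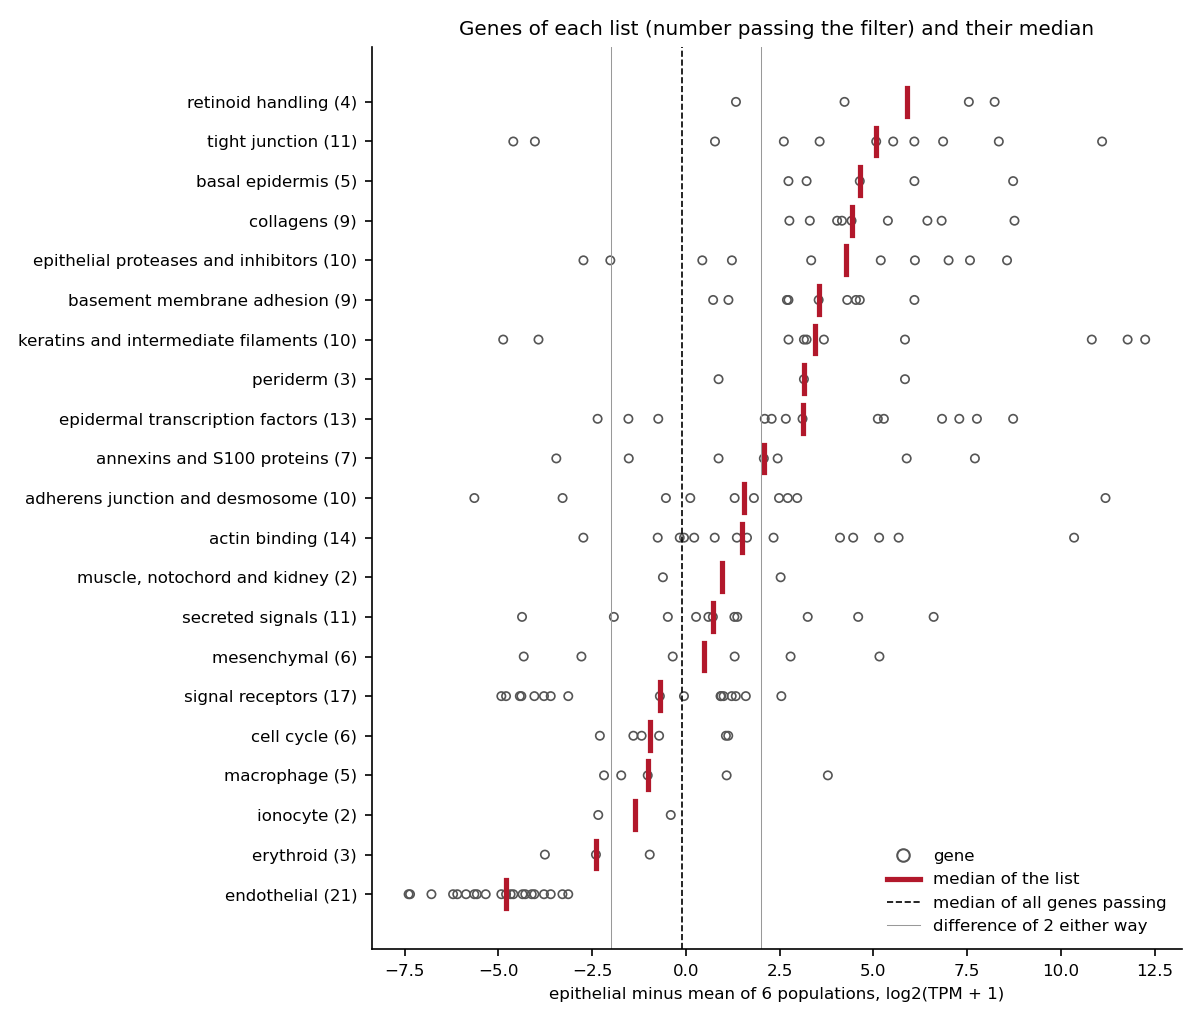
Difference between epithelial cells and the mean of 6 populations in log2(TPM + 1) for the genes of each list that passed the filter (circles), with the list median (red bar) and the median of all genes that passed (dashed line, -0.10). Lists run from retinoid handling (median 5.89) to endothelial (median -4.79), and lists with fewer than 2 passing genes are left out.

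Among themselves the 10 epithelial cells were even for some of their leading genes and uneven for others. The keratin genes cyt1 (1372 to 21786 TPM) and cyt1l (195 to 10561 TPM) were among the less even leading genes. The SD of the level was 0.39 for cfl1l, 0.37 for pfn1, 0.49 for rpe65b, 0.57 for cldni and 0.65 for epcam. The 5 genes with a symbol and the largest SD were cfd (6.36), si:dkey-117n7.3 (5.10), thy1 (5.04), PTGS2 (4.73) and fgfbp1 (4.70). The complement factor gene cfd was at 4360, 2228, 11951 and 18262 TPM in 15-18 somite cells 2 and 5 and 20 somite cells 1 and 3, at 1.67 TPM in 1 further cell and below 1 TPM in 5. The prostaglandin synthase gene PTGS2 was at 976, 973 and 1231 TPM in 15-18 somite cells 1, 2 and 3, at 86.8 and 1.92 TPM in 20 somite cells 2 and 1, and at 0 in the other 5. Both genes were thus above 1 TPM in some cells of each stage and below it in others. Over the 10 cells, levels of epcam and cldni had a Pearson r of 0.60 and those of krt4 and cyt1 of 0.67, while tp63 and krt4 gave -0.23. The markers epcam and krt4 gave a Pearson r of -0.47 and a Spearman rho of -0.12. These values describe cells from 2 samples, in each of which TPM is closed to a fixed total.

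Between the stages, 415 of the 5687 genes (7.3%) were higher by at least 2 in the 4 epithelial cells at 20 somites than in the 6 at 15-18 somites, and 765 (13.5%) were lower. A gene found in the 4 later cells alone could not pass through the epithelial side of the filter. A gene found in the 6 earlier cells alone could, so these 2 counts are not on equal terms. Genes detected per cell were 3948 to 6675 at the earlier and 3627 to 5701 at the later stage, and their part in these counts was not tested. Some leading genes had close values, with krt4 at 14.25 and 13.72 on the log2 scale, epcam at 12.03 and 11.82, cldni at 11.63 and 11.60 and tp63 at 9.94 and 10.29. Lower at 20 somites was snai2, with 1016, 184, 698, 169, 14.3 and 80.7 TPM in the earlier cells and 9.24, 27.2, 0 and 17.0 TPM in the later ones, so that the 2 sets overlapped in the range of 14.3 to 27.2 TPM. The gene cyt1l was at 12.36 and 9.92. The gene wnt7aa had a mean of 6.40 at 15-18 and 1.89 at 20 somites. With 1 sample per stage none of these was tested.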

How the data were processed

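The authors deposited 1 TPM value per gene and cell, quantified with Kallisto in AltAnalyze against an Ensembl annotation of the Zv9 assembly. The Kallisto version is not given in the sources used here. A second deposited table gives 13474 of the genes on a log2 scale. It was checked to be the TPM values plus 1 in log2 form and was not otherwise used. Population numbers came from the deposited grouping, made by iterative clustering with cosine similarity. Deposited population means of marker genes are the authors' own comparison and were not used beyond their symbols. The files hold 0 further per-sample columns. No coordinates and no sequences were used.

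The pseudocount was 1, a gene passed above 1 TPM in at least 50% of the cells of either side, and called means a difference of at least 2 on the log2 scale. That gene set was kept under every alternative other than the filters and the rescaling without genes over 1% of any cell, which kept 5628 of its genes. Doublets were not called. The method of the study describes a singlet gate in the sort.

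Symbols came from the deposited marker table (467 genes), a gene name table (19550) and the annotation of the study (301), together 72.7% of identifiers. Of 499 listed symbols in 25 lists, 378 were matched to a single identifier, ignoring case, and names in capitals are those of the table, some of which do not say which of 2 duplicates is meant. Members and lists were chosen with earlier results of these data known. Named were epcam, krt4 and cldni, the 15 largest positive and 15 largest negative differences among genes with a symbol, list members (up to 8 a list by size of difference, others for being absent or for a pair), the 5 largest gaps between the lowest epithelial and highest comparison cell, endothelial genes in the epithelial cells, and the 5 largest SDs. The 5 largest gaps were those of cyt1, cldni, krt4, cyt1l and si:dkey-102c8.3. The calculation was run on simulated data with planted differences, drawn with less spread than the real cells and with shifts larger than a call. It checks the arithmetic and not the calls made here. Alternatives covered weights, pseudocount, filter, scaling, stage, comparison populations, single cells left out and the size of a call. Python 3.11.15, numpy 2.4.6, pandas 2.3.3, scipy 1.17.1 and matplotlib 3.10.9 were used.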

Additional observations from a re-analysis of the deposited data

Results flagged for a closer look

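In 1 list and 2 genes the sign of the difference was opposite at the 2 stages, each of which is 1 sample, and the change of sign was not tested. The apicobasal polarity list, which rests on llgl2 alone, had a difference of -0.66 at 15-18 somites and 2.36 at 20 somites. The surface glycoprotein gene thy1 had 4.98 and -0.233, with values of 1041, 4080, 1601, 66.2, 7866 and 2407 TPM in the earlier epithelial cells and 6152, 0, 5780 and 0 TPM in the later ones. The matrix gene sparc had 4.97 and -0.0826, with 465 to 1604 TPM in the earlier cells and 0 to 269 TPM in the later ones.

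Population 3 lies outside the comparison, yet 2 of its 28 cells had epcam, krt4 and cldni all above 5 TPM, against 0 of 58 comparison cells. Both came from the 20 somite stage. The first had 4458 TPM of epcam, 29159 TPM of krt4, 1258 TPM of cldni, 11659 TPM of cyt1 and 3896 TPM of cfl1l, within or near the range of the 10 epithelial cells, but 0 TPM of tp63 and of cldn1, and 3.44 TPM of etv2. Its keratin share of 4.29% also lay in the epithelial range. The second had 14.0 TPM of epcam, 91.1 TPM of krt4 and 11.6 TPM of cldni together with 7457 TPM of etv2, 504 TPM of lmo2 and 420 TPM of cdh5. What either cell is was not tested.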

How the results depend on the processing

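No paired analysis was possible because there is 1 sample per stage and no test. The numbers of higher and lower genes depended on the pseudocount, at 992 and 876 with 0.1 and 274 and 151 with 10 in place of 1, and on the size of a call, at 1283 and 1277 with 1 and 358 and 205 with 3. The 20 somite cells alone gave 872 lower genes. With a single epithelial cell left out the counts were 622 to 703 higher and 473 to 551 lower genes, and 17 of 24 list medians were above 0 each time. Under the other settings both counts stayed within 1.5 times 648 and 496, from 583 to 858 higher and 378 to 676 lower. Median-ratio scaling over 539 genes moved the median difference of all genes from -0.10 to 0.03. Comparison cells with all 3 markers were 4 above 1 TPM and 0 above 5 TPM. The stage counts of 415 and 765 became 104 and 203 with a pseudocount of 10, and 379 to 591 and 673 to 959 with 1 cell left out, alternatives that were chosen after seeing the data. All of them kept the gene set of the main filter, which favours genes of the earlier epithelial cells.

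Of 13 list medians of at least 2 in size, 13 kept their sign in every setting run, and so did 106 of 117 named genes. All settings other than the filters used only genes that passed the main filter, which largely set the direction of most called genes. Keeping the sign is therefore no support for these differences. Of all list medians, 13 were above 0 with no filter and 15 with a filter above 10 TPM, in place of 17. The 11 others changed sign in 1 setting each. Against blood alone these were sox7 (0.290), krt18a.1 (1.94), cldn5b (0.103), TJP1 (0.0785), tie1 (0.0937), kdrl (0.364), flt1 (0.0464) and snai1a (0.688), against endothelium alone spi1b (0.0574), and in 20 somite cells alone thy1 (-0.233) and sparc (-0.0826). For the 9 genes changed by the choice of comparison, the other populations are the ones in which the gene is high. TPM gives no read depth, and with 10 epithelial cells a gene found in 0 of them could be in up to 3 cells of 10 at this detection minimum.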

Other observations

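Cell cycle genes set 3 of the epithelial cells apart. Of 17 matched genes, 12 were above 1 TPM in 15-18 somite cell 2, 11 in 15-18 somite cell 6 and 9 in 20 somite cell 1, against 2 to 5 in the other 7. The kinase gene cdk1 was at 132, 390 and 233 TPM in these 3 cells and below 1 TPM in the rest. The replication clamp gene pcna was at 670, 1529 and 1738 TPM in them and at 0 to 332 TPM in the others. Comparison cells had 0 to 16 of the genes detected, with a median of 5, and of the 6 genes that passed the filter 0 were higher and 1 lower (plk1, -2.29, median -0.95).

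Markers of other tissues appeared in single cells. Of 11 matched neural and neural crest genes 0 passed the filter, and the epithelial cells had 0 to 3 of them above 1 TPM. The 3 were in 15-18 somite cell 1, with sox3 at 67.1, sox19a at 103.5 and elavl3 at 3.64 TPM. Of 9 matched muscle, notochord and kidney genes 2 passed and 1 was higher, acta1b with a difference of 2.53 in 6 epithelial cells at a median of 1.82 TPM. It reached 938.6 TPM in 15-18 somite cell 5 and 379.1 TPM in 20 somite cell 1 and was at most 16.8 TPM in the other 8. The myogenic factor gene myod1 was above 1 TPM in 5 epithelial cells, at most at 5.91 TPM, and myog in 0.

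Of the 648 higher genes, 172 had at least 1 comparison population whose mean was less than 1 below the epithelial mean, or above it. This was so in macrophages for 64 genes, in arterial cells for 44, in EC2 cells for 42, in EPC for 28, in erythrocytes for 24 and in venous cells for 23.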
